A study of Mus musculus with 3 samples.

Results

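Small nucleolar RNA host genes are transcribed into long RNAs whose introns carry small nucleolar RNAs (snoRNAs), short guides that direct chemical modification or cleavage of ribosomal RNA. After splicing, the introns are trimmed to mature snoRNAs. The joined exons leave as a noncoding transcript, and for several hosts, Gas5 among them, that transcript is known to be translated briefly and removed by nonsense-mediated decay. Many hosts also start at a terminal oligopyrimidine (TOP) tract, the signature of ribosomal protein mRNAs, whose translation follows the growth kinase mTORC1. Of the host genes, 6 were examined by their symbols, Gas5, Snhg1, Snhg3, Snhg6, Snhg8 and Snhg12, and all 6 were found among the 24054 genes of the deposited table.

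The study sequenced RNA from primary cortical neurons, cells dissociated from the brains of C57BL/6 mice at embryonic day 17 and grown for 7 days. The 3 groups were hypoxia with thyroid hormone (0.2% oxygen for 7 hours with 5 nM T3, the active form of the hormone), hypoxia without it (0.2% oxygen for 7 hours) and control (21% oxygen), each with 1 library. All 3 share the strain, age and culture time, and the labels state neither how many animals or cultures were pooled nor the hormone content of the control medium. With 1 library per group there was no spread between replicates and therefore no test, and intervals below cover counting error only.

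The files hold CPM, read counts scaled to a common library size, and correspond to between 17118865 and 22533574 reads per library. Neuronal markers were abundant (summed over 8 genes 7710 CPM in hypoxia with T3, 7697 in hypoxia and 7456 in control), with 1 of the 8 at least 2-fold higher (Nefl) and 1 at least 2-fold lower (Tubb3) in each hypoxic library, and 8 microglial markers summed to 2.59, 2.099 and 1.99 CPM in the same order of groups. Of 7 progenitor markers (242, 224 and 256 CPM) Hes5 was at least 2-fold lower in each hypoxic library, these markers being named after their values were seen. Astrocyte markers, 7 in number, summed to 469, 445 and 450 CPM, and 7 markers of inhibitory neurons to 443, 466.5 and 342.5 CPM, with 0 at least 2-fold apart in hypoxia. The 8 markers of the oligodendrocyte lineage summed to 202 CPM in hypoxia with T3, 201 in hypoxia and 345 in control, with 2 of the 8 at least 2-fold lower in each hypoxic library, and the 45S ribosomal RNA row Rn45s stood at 8649, 5119 and 2598 CPM. The part of these differences in the results below was not tested. In a bulk culture, fewer cells of a type and less RNA per cell cannot be told apart.

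The 6 genes share a compact layout. In the GENCODE M21 annotation of GRCm38, which is the mm10 assembly, they span between 0.853 kb (Snhg8) and 5.67 kb (Snhg3), and 25 snoRNA loci lie inside them, all 25 in introns of the transcript with the most exons. Gas5, growth arrest specific 5 (chromosome 1, 161034422 to 161038539, plus strand), carries 9 of these loci between 12 exons. Snhg1 (chromosome 19, 8723475 to 8726443, plus strand) carries 8 between 10 exons. Snhg12 (chromosome 4, 132308623 to 132311024, plus strand) carries 4, and Snhg3 (chromosome 4, 132348014 to 132353686, minus strand), the host of the U17 snoRNAs Snora73a and Snora73b, carries 2. Snhg6 (chromosome 1, 9941959 to 9944118, minus strand) and Snhg8 (chromosome 3, 123507552 to 123508404, minus strand) carry 1 each, Snord87 and Snora24.

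**Figure D1:**
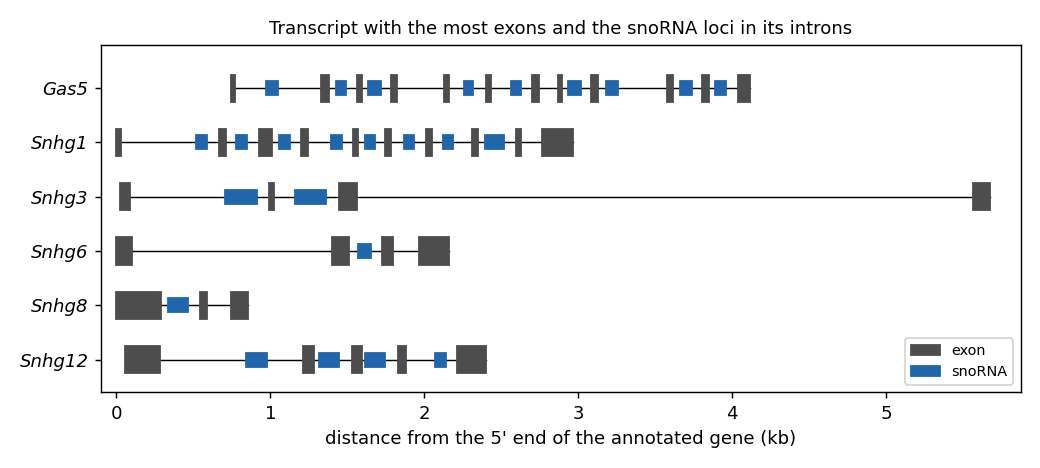
Layout of the 6 host genes, with distance from the 5′ end of the annotated gene in kb on the horizontal axis, exons of the transcript with the most exons as tall dark boxes and snoRNA loci as short blue boxes. The 9 loci of Gas5 and the 8 of Snhg1 lie singly in introns, although not every intron holds one, while Snhg6 and Snhg8 hold 1 each.

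The start sites are shown because a pyrimidine tract there is a feature that hosts share with ribosomal protein genes. RefSeq windows (GRCm38.p6) were held for 5 of the 6 genes, and each line runs 5′ to 3′ from 50 bases before to 20 bases into the transcript. Capitals mark a run of a C followed by at least 4 of C or T that begins within 5 bases of the annotated start, and, further upstream, the letters TATAA or TATAT of a TATA box. The windows are chr1:161035116-161035185 (plus strand, the inner of the 2 annotated Gas5 starts), chr3:123508317-123508386 (minus), chr4:132308628-132308697 (plus), chr4:132353667-132353736 (minus) and chr19:8723437-8723506 (plus).
Gas5: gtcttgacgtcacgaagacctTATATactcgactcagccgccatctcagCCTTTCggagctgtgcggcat
Snhg8: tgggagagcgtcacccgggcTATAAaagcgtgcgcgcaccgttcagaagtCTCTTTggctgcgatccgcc
Snhg12: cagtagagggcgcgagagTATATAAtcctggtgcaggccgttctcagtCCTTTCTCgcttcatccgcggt
Snhg3: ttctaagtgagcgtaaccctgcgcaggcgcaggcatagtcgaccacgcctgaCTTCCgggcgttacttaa
Snhg1: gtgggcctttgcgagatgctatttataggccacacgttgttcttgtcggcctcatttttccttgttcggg

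Such a tract stood near the start in 4 of 5 host genes, against 28 of 58 ribosomal protein genes and 23.7% of the 9536 compared genes with a window. It also stood there in 5 of 7 other noncoding snoRNA hosts and 4 of 11 other long noncoding RNAs, lists described below. Exactly at the first base it was present in 2 of 5 host genes (Gas5 and Snhg8) and in 3.03% of the compared genes. It was also there in 14 of 58 ribosomal protein genes, 1 of 7 other noncoding hosts and 2 of 11 other long noncoding RNAs. TATA letters lay 45 to 15 bases upstream in 3 of 5 host genes and in 3.10% of the compared genes. In those 3 lists, in the same order, they lay there in 6 of 58, 2 of 7 and 2 of 11 genes. In Snhg1 a pyrimidine stretch follows the start but is broken by an A, so the rule did not count it. Over the 6 member windows of 300 bases, counting both Gas5 starts and searching both strands, the cyclic AMP response element TGACGTCA occurred in 1 (the inner Gas5 window, visible above as ttgacgtcac) and in 1.79% of all 32851 windows. The E-box CACGTG occurred in 0 of 6 (7.15% of all), and the cores of the hypoxia response element in 1 of 6 for ACGTG, which the E-box contains (19.6% of all), and in 4 of 6 for GCGTG (32.4% of all). These matches describe letters and not binding sites.

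The first comparison sets each hypoxic library against the normoxic control library. All 6 host genes were higher in both hypoxic libraries than in control. Snhg1 and Snhg12 were about 4-fold higher, Snhg8 and Snhg3 about 3-fold higher in hypoxia, Gas5 somewhat above 2-fold, and Snhg6 just under 2-fold. The hypoxic libraries with and without T3 lay closer to each other than to control for all 6. They were furthest apart for Snhg3, with a ratio of 0.790 for hypoxia with T3 over hypoxia.

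Gas5, whose exons have been studied as a growth-arrest RNA and as a decoy of the glucocorticoid receptor, was the most abundant of the 6. It had 1853 reads in hypoxia with T3, 1525 in hypoxia and 747 in control, or 78.8 CPM in hypoxia with T3, 84.2 CPM in hypoxia and 34.6 CPM in control. Both hypoxic libraries lay far above the control library. The fold was 2.28 (95% interval 2.09 to 2.48) for hypoxia with T3 over control and 2.43 (2.23 to 2.66) for hypoxia over control.

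Snhg1, the host of a cluster of C/D box snoRNAs, stood at 21.2 CPM in hypoxia with T3, 22.1 CPM in hypoxia and 5.05 CPM in control (498, 400 and 109 reads). The hypoxic libraries lay close together, well above the control library. It was 4.19-fold higher (3.40 to 5.21) in hypoxia with T3 and 4.37-fold higher (3.53 to 5.46) in hypoxia, the largest folds among the 6 genes.

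Snhg12, which hosts both H/ACA and C/D box snoRNAs, followed closely, at 19.5 CPM in hypoxia with T3, 20.1 CPM in hypoxia and 5.05 CPM in control (459, 364 and 109 reads). Its read count in control equalled that of Snhg1. The folds over control were 3.86 (3.13 to 4.81) in hypoxia with T3 and 3.98 (3.21 to 4.98) in hypoxia.

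Snhg8, the host of the H/ACA box snoRNA Snora24, was at 12.2 CPM in hypoxia with T3, 14.2 CPM in hypoxia and 4.403 CPM in control (288, 257 and 95 reads). The control value was again the lowest. The folds over control were 2.78 (2.20 to 3.55) with T3 and 3.22 (2.54 to 4.12) without.

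Snhg3, with the lowest CPM of the 6 in every library, stood at 6.80 CPM in hypoxia with T3, 8.62 CPM in hypoxia and 2.73 CPM in control (160, 156 and 59 reads). Its intervals were the widest relative to the fold, 2.49 (1.84 to 3.41) for hypoxia with T3 over control and 3.15 (2.32 to 4.33) for hypoxia over control.

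Snhg6, the host of Snord87, was at 22.4 CPM in hypoxia with T3, 21.9 CPM in hypoxia and 12.05 CPM in control (526, 397 and 260 reads). It was the member nearest to control, 1.86-fold higher (1.60 to 2.16) with T3 and 1.82-fold higher (1.55 to 2.14) without. In the hypoxia comparison the upper bound for Snhg6 lay below the lower bounds of the other 5 genes, and the upper bound for Gas5 lay below the lower bounds of Snhg1 and Snhg12.

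**Figure D2:**
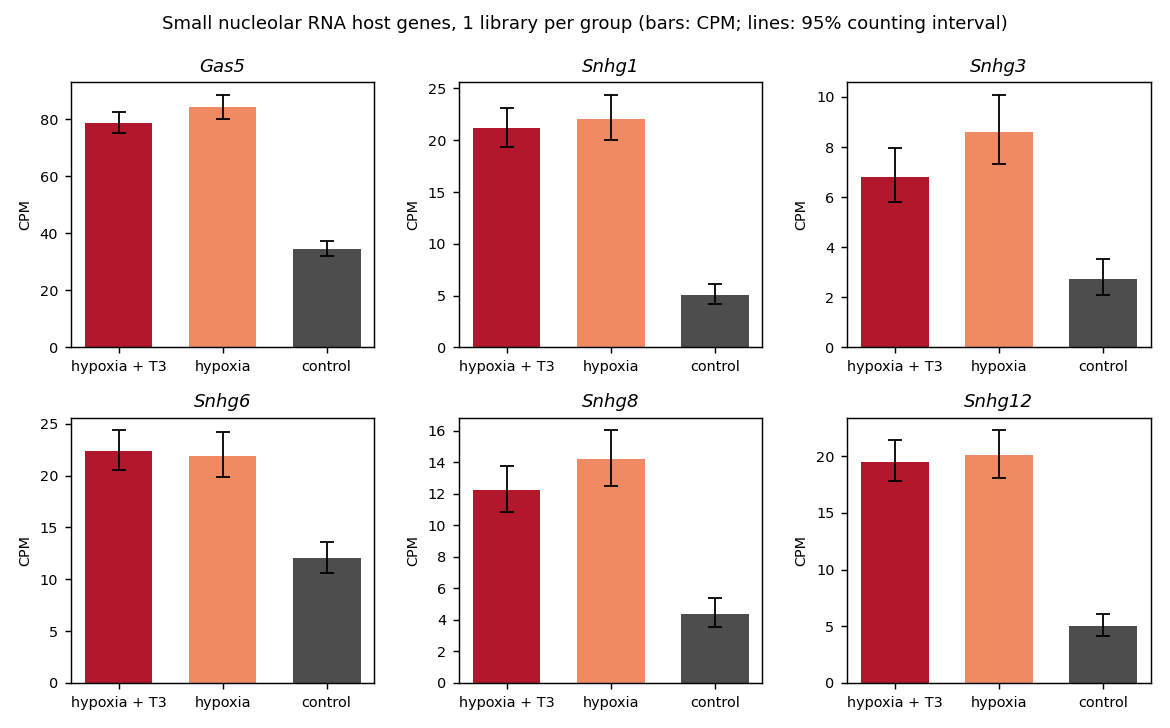
CPM of each host gene (vertical axes, from 0) in the 3 libraries, with bars for hypoxia with T3, hypoxia and control from left to right and lines for the 95% counting interval. In every panel both hypoxic bars stand above the control bar, by the smallest fold for Snhg6 (22.4 and 21.9 against 12.05 CPM).

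Across genes, folds were counted on values with 1 CPM added, over the 12692 genes whose mean over the 3 libraries reached 1 CPM, all 6 hosts among them. In hypoxia over control, 5 of 6 hosts were at least 2-fold higher, where 1.99% of all compared genes were, and 6 of 6 were at least 1.5-fold higher, where 8.46% were. None was lower at either threshold (4.92% and 13.8% of all genes). In hypoxia with T3 over control the counts were also 5 of 6 at 2-fold (2.06% of all genes) and 6 of 6 at 1.5-fold (8.73% of all genes), again with none lower (4.59% and 13.1% of all genes). The median log2 ratio of the hosts was 1.23 in hypoxia with T3 and 1.43 in hypoxia, beside 0.08 and 0.05 over all compared genes. These 2 comparisons share the control library and are not independent.

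The split of all genes depends on the scaling. As deposited, hypoxia had 252 genes higher by 2-fold or more and 624 lower, and when the libraries were brought to equal sums it had 188 higher and 949 lower. For hypoxia with T3 the split was 262 higher and 582 lower as deposited, and 196 and 898 with equal sums. That scaling moved the median of all genes by -0.18 with T3 and -0.16 without. With equal sums the host genes still had log2 ratios between 0.66 (Snhg6) and 1.70 (Snhg1) in hypoxia with T3 and between 0.65 and 1.78 in hypoxia, but only 3 of 6 then reached 2-fold in hypoxia with T3, with Gas5 at 0.97 and Snhg3 at 0.91. The number at 2-fold in hypoxia with T3 was also 3 of 6 with 5 CPM added in place of 1.

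Ranked by log2 ratio of hypoxia over control among the 12692 genes, Snhg1 was at position 58, Snhg12 at 72, Snhg8 at 113, Snhg3 at 128, Gas5 at 157 and Snhg6 at 397. All 6 thus fell within the highest 3.13% of genes. In hypoxia with T3 over control their positions ran from 66 (Snhg1) to 395 (Snhg6).

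**Figure D3:**
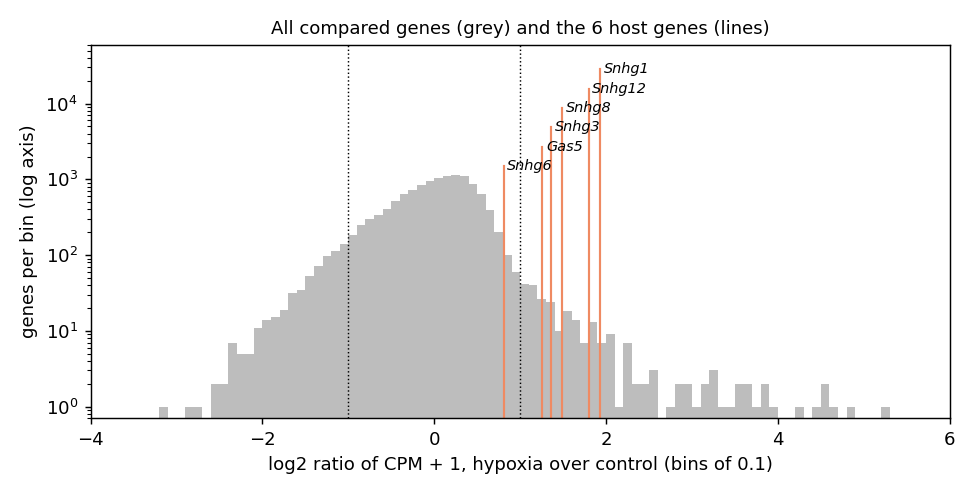
Number of genes per bin of 0.1 (vertical log axis) by log2 ratio of hypoxia over control (horizontal axis, 1 CPM added), with all 12692 compared genes in grey, the 6 host genes as lines and 2-fold marked by dotted lines. Snhg6 lies at 0.81 and the other 5 between 1.26 (Gas5) and 1.93 (Snhg1), on the right shoulder of the distribution.

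In the authors' deposited table for hypoxia over control, whose test the labels do not name, Snhg1 had a fold of 4.19 with a p-value of 0.00154 and a false discovery rate of 0.130, and Snhg12 a fold of 3.81 with a false discovery rate of 0.193. The authors' deposited table gave the other 4 hosts folds between 1.74 and 3.09 and false discovery rates between 0.408 and 0.999. In the authors' deposited table for hypoxia with T3 over control the lowest false discovery rate among the hosts was 0.131, for Snhg1. In neither comparison did any of the 6 have a false discovery rate below 0.05. The same held for nearly all other genes in those tables, so this does not set the hosts apart. With 1 library per group, these p-values and rates rest on no measured spread between replicates.

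Hypoxia with T3 was then set against hypoxia. With 1 library in each group, the part of the hormone cannot be told apart from other differences between these libraries. For the host genes the ratios of CPM lay between 0.790 (Snhg3) and 1.02 (Snhg6). Of the 6 genes, 0 were at least 1.5-fold higher, beside 0.717% of all compared genes, and 0 were at least 1.5-fold lower, beside 0.276%. At 2-fold the counts were likewise 0 higher (0.126% of all genes) and 0 lower (0.063%). With so few of all genes past these thresholds, counts of 0 do not set the hosts apart. Ranked from the highest log2 ratio among the 12692 genes, Snhg6 was at position 5527, Snhg12 at 8672 and Snhg1 at 9315. Gas5 was at 10288, Snhg8 at 11725 and Snhg3 at 12279. The median log2 ratio was -0.08, beside 0.01 over all genes, and 1 of 6 ratios, that of Snhg6, was above 0.

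Snhg3 had the lowest ratio of hypoxia with T3 over hypoxia, 0.790 (0.629 to 0.991), and Snhg8 the next, 0.863 (0.727 to 1.02). Gas5 stood at 0.936 (0.874 to 1.002), Snhg1 at 0.959 (0.839 to 1.10), Snhg12 at 0.971 (0.844 to 1.12) and Snhg6 at 1.02 (0.894 to 1.17). The interval for Snhg3 alone lay wholly below 1, and for the other 5 genes no difference was detectable at this depth. Summed over the 6 genes, the reads gave a ratio of 0.940 (0.896 to 0.986), against 2.52 (2.37 to 2.68) for hypoxia with T3 over control and 2.68 (2.51 to 2.86) for hypoxia over control. Gas5 supplies the largest part of these sums.

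**Figure D4:**
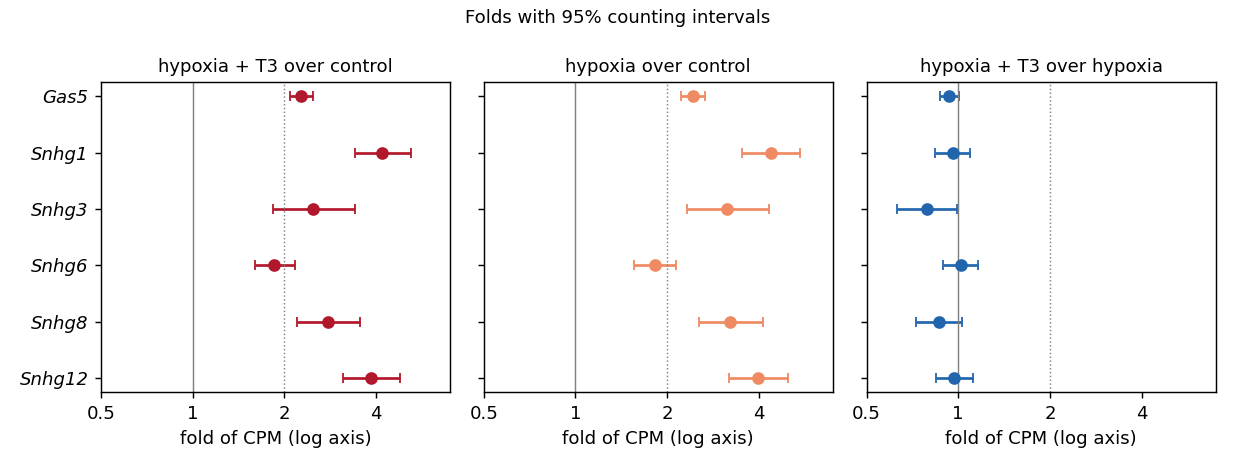
Folds of CPM (horizontal log axis) with 95% counting intervals for the 6 host genes, in hypoxia with T3 over control, hypoxia over control and hypoxia with T3 over hypoxia, with 1 and 2 marked by vertical lines. The points of the first and second panels lie between 1.82 and 4.37, and those of the third between 0.790 and 1.02.

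The host genes also differed in level. Per kilobase of the transcript with the most exons, Gas5 stood at 157 CPM per kb in hypoxia with T3, 168 in hypoxia and 69.0 in control, and Snhg6 at 47.3, 46.4 and 25.5 CPM per kb. The other 4 lay between 26.0 and 36.5 CPM per kb in hypoxia and between 8.24 and 9.83 in control. With the median length of all annotated transcripts instead, Gas5 and Snhg6 were again the highest in each library (134 and 39.2 CPM per kb in hypoxia), and the order of the other 4 in control changed. The highest 2 in control were thus the 2 with the smallest folds over control, although the control value enters both quantities. Of the summed CPM of the 6 genes, Gas5 made up 49.0% in hypoxia with T3, 49.2% in hypoxia and 54.2% in control, while Snhg1 made up 13.2%, 12.9% and 7.90%.

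The snoRNAs themselves were scarcely read in these libraries. Of the 25 loci inside the hosts, 8 had a row of their own, and these 8 rows together held 19 reads in hypoxia with T3, 17 in hypoxia and 8 in control. Snord22, in an intron of Snhg1, accounted for 11, 12 and 3 of them. Snord47, in an intron of Gas5, had 0 reads in every library, which allows up to 0.128 CPM in hypoxia with T3, 0.166 in hypoxia and 0.139 in control. Its sequence, from GENCODE M21 (chr1:161038082-161038158, plus strand), is shown as an example of what a host intron carries, with capitals for the letters TGATGA and CTGA of its C and D boxes. The host values therefore describe the spliced or unspliced host RNA and say nothing of the amount of mature snoRNA.
Snord47: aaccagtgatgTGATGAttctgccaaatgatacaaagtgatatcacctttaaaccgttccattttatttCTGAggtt

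Reads of neighbouring genes bear on how firmly host reads can be assigned, because the labels name a stranded kit but not how strand was used in counting. Zbtb37, a zinc finger gene on the opposite strand that overlaps the 5′ end of Gas5 by 428 bases, was at 6.89 CPM in hypoxia with T3, 6.57 in hypoxia and 11.2 in control, lower where Gas5 was higher. Rcc1, a chromatin-bound nucleotide exchange factor, overlaps Snhg3 on the same strand and stood at 17.2 CPM in hypoxia with T3, 16.02 in hypoxia and 14.2 in control, 1.13-fold (0.958 to 1.33) in hypoxia over control against 3.15-fold for Snhg3. Of the 31-base words of Snhg3 transcripts, 7.94% also occur in Rcc1, which had the higher CPM in every library, so the values of Snhg3 are uncertain, and the number of reads assigned to the wrong gene of the pair was not measured. Mcmdc2, a meiotic gene that overlaps the 3′ end of Snhg6 by 127 bases on the opposite strand, was at 7.40 CPM in hypoxia with T3, 8.06 in hypoxia and 10.1 in control. Slc3a2, the heavy chain of amino acid transporters, lies 105 bases from Snhg1 in the opposite direction and was at 243.8 CPM in hypoxia with T3, 255.5 in hypoxia and 113.5 in control, 2.25-fold higher (2.14 to 2.37) in hypoxia. Apart from annotated snoRNAs, 1.02% of the words of Snhg1 and 0% of those of Gas5, Snhg6, Snhg8 and Snhg12 occur in other genes.

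Other noncoding snoRNA hosts, 16 in number, were listed with earlier results of these data known. Of these, 14 were in the table (6 through a RefSeq synonym) and 12 had enough reads to compare. In the annotation, Snhg10 and Snhg20 held 0 snoRNA loci, and Snhg4 and Snhg7 had no entry under their symbols. At 2-fold, 7 of the 12 were higher in hypoxia and 0 lower, with a median log2 ratio of 1.01, and 5 were at least 2-fold higher in hypoxia with T3, with a median of 0.93. Both medians were 0.55 with 5 CPM added in place of 1, below those of the ribosomal protein genes with the same addition (0.65 with T3 and 0.67 without). Zfas1 (row 1500012F01Rik), a host of C/D box snoRNAs, was at 24.6 CPM in hypoxia with T3, 25.2 CPM in hypoxia and 5.24 CPM in control, 4.81-fold higher (3.91 to 5.96) in hypoxia and thus above Snhg1. Snhg5 was at 34.7 CPM in hypoxia with T3, 35.8 in hypoxia and 10.6 in control, 3.37-fold higher (2.90 to 3.94) in hypoxia.

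Of the other 6 that were at least 1.5-fold higher in hypoxia, the folds of CPM ran from 2.30 (Epb41l4aos) to 3.33 (2410006H16Rik).

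The remaining 4 of the 12 were less than 1.5-fold apart in hypoxia over control. Snhg11, a long neuronal host that spans 10.5 kb and was by CPM the most abundant of the noncoding hosts, stood at 109 CPM in hypoxia with T3, 107 in hypoxia and 98.5 in control, 1.08-fold (1.02 to 1.15) in hypoxia, a log2 ratio of 0.11 that is smaller than the shift made by equal sums. Snhg7, at 1.36, 1.49 and 2.18 CPM, was the only one of the 12 with a ratio below 0 on the log2 scale against control. With T3 over hypoxia, 0 of the 12 were 1.5-fold apart in either direction.

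Protein-coding hosts outside the ribosomal proteins, 23 in number, were less shifted, with a median log2 ratio of 0.54 in hypoxia with T3 and 0.51 in hypoxia over control. In each comparison 1 of 23 was at least 2-fold higher, Taf1d, a subunit of the RNA polymerase I factor SL1, at 34.1 CPM in hypoxia with T3, 33.6 in hypoxia and 13.0 in control (2.58-fold, 2.24 to 2.99, in hypoxia). Nop56, a core protein of C/D box particles and itself a host, was 1.85-fold (1.73 to 1.97) in hypoxia, while Cnot1, the scaffold of the deadenylase complex, was at 123, 118 and 169 CPM, a fold of 0.696 (0.659 to 0.735) in hypoxia.

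Ribosomal protein genes, which share the TOP start and of which several host snoRNAs, lay in a narrow band whose highest members overlapped Snhg6. Of 79, 76 were at least 1.5-fold higher in hypoxia with T3 and 73 in hypoxia, and 0 reached 2-fold in either. Their log2 ratios in hypoxia ran from 0.54 to 0.95 with a median of 0.69 (0.52 with equal sums), so that Rpl34 at 0.95 and Rpl18 at 0.82 exceeded Snhg6 at 0.81, and none exceeded the other 5 hosts. Of 15 other TOP mRNAs, among them the elongation factor Eef1a1 at 4350, 4259 and 2641 CPM, 9 were at least 1.5-fold higher in each hypoxic library (median 0.63 with T3 and 0.62 without). In hypoxia over control, 1.55% of the 2262 compared genes with a tract near the start exceeded 2-fold, and 2.16% of the 7274 without. Their median log2 ratios were 0.07 and 0.05. Because 0 of the 79 ribosomal protein genes and 0 of the 15 other TOP mRNAs reached 2-fold, that share cannot describe TOP mRNAs. The part of the tract in the host values was not tested.

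Genes that act on the snoRNAs or on the host transcripts were also listed. Of 8 core proteins of snoRNA particles, 2 were at least 1.5-fold higher in each hypoxic library, Nop56 and the methyltransferase Fbl (77.4 CPM in hypoxia with T3, 79.5 in hypoxia and 50.1 in control), and the median log2 ratio was 0.40 with T3 and 0.37 without. Of 12 assembly factors, 0 were 1.5-fold apart (median 0.26 with T3 and 0.15 without, the second at -0.02 with equal sums). Of 20 genes for RNA polymerase I and ribosomal RNA processing, 1 was at least 2-fold higher in hypoxia, Polr1c, a subunit of polymerases I and III, at 35.97 CPM in hypoxia with T3, 37.0 in hypoxia and 17.7 in control, and Utp20, of the small subunit processome, had a fold of 0.581 (0.507 to 0.666).

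Among 20 factors of nonsense-mediated decay and the mRNA decay that follows it, 1 was at least 1.5-fold higher and 4 at least 1.5-fold lower in each hypoxic library. The higher one was Smg5, an adaptor that recruits phosphatase to the helicase Upf1, at 125 CPM in hypoxia with T3, 121 in hypoxia and 77.3 in control. The lowest ratios were those of the decapping genes Dcp2, at 33.2, 31.8 and 66.9 CPM, and Dcp1a, at 11.4, 11.2 and 22.1 CPM. Upf1 itself was at 83.2, 85.8 and 82.2 CPM. Of 19 mTORC1 and TOP regulators, 2 were at least 2-fold higher in each hypoxic library, with a list median of -0.03 in both comparisons. These were the mTORC1 inhibitors Ddit4 (4.26-fold, 3.999 to 4.54, in hypoxia) and Sesn2 (3.47-fold, 3.09 to 3.90). At least 1.5-fold lower were 3 of the 19 in hypoxia with T3 and 2 in hypoxia. The 2 in hypoxia were Sesn1 (a fold of 0.565, 0.483 to 0.660) and Larp4 (0.593).

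Other long noncoding RNAs did not share the pattern of the hosts in these libraries. Of 17 compared, 0 were at least 1.5-fold higher in either hypoxic library, 1 was at least 2-fold lower, and the median log2 ratio was -0.08 with T3 and -0.13 without. The difference between these lists was not tested, since genes are not replicates.

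**Figure D5:**
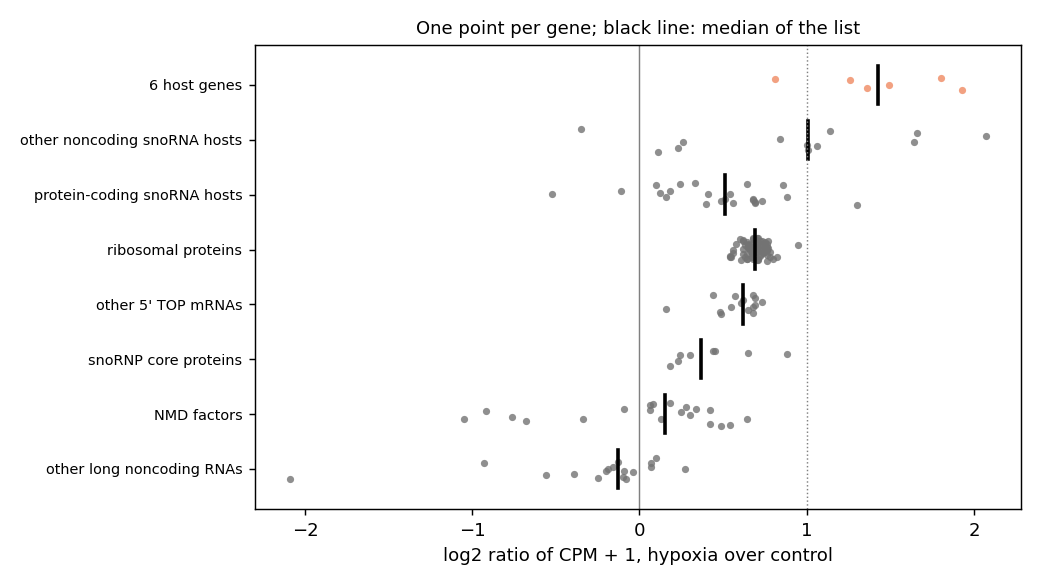
Log2 ratio of hypoxia over control (horizontal axis, 1 CPM added), with 1 point per compared gene, lists in rows and the median of each list as a black line. The 6 host genes have a median of 1.43, the other noncoding hosts 1.01, ribosomal proteins 0.69 and other long noncoding RNAs -0.13.

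Gene span went with the ratio as well. Of the 12692 compared genes 95.3% had a span by symbol, and among the 1617 that span up to 6 kb, as all 6 hosts do, 6.56% exceeded 2-fold in hypoxia and 25.8% exceeded 1.5-fold, with a median log2 ratio of 0.37. The corresponding values with T3 were 6.62%, 25.5% and 0.36. The part of span in the host values was not tested.

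The pattern of the hosts over the 3 libraries was compared with that of 9979 other named genes by the Euclidean distance between pairs of log2 ratios, hypoxia over control and hypoxia with T3 over hypoxia. The 5 genes nearest to the median pair of the hosts (1.43 and -0.08) were Brd2, a bromodomain protein, Ldha, lactate dehydrogenase A, Nppc, C-type natriuretic peptide, Itprip and Gla, the lysosomal alpha-galactosidase. Brd2 was nearest, at a distance of 0.045, with 686 CPM in hypoxia with T3, 707 in hypoxia and 257 in control. Ldha stood at 606, 610.0 and 229.7 CPM, Nppc at 11.95, 12.9 and 4.403 CPM, Itprip at 12.2, 13.2 and 4.54 CPM and Gla at 29.6, 30.6 and 10.1 CPM in the same order of groups. A likeness over 3 libraries describes these libraries only.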

How the data were processed

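RNA of mouse primary cortical neurons was sequenced with the KAPA stranded kit, per the labels' protocols, with 1 library in each of 3 groups, and columns were assigned by the library names in the labels. RSEM 1.2.15, Bowtie2 2.1.0, bcl2fastq 2.17 and the mm10 build are named, without roles, in the submitters' processing notes. The authors deposited CPM with TMM normalisation, per the file name. Of these values, 100% were whole multiples, within 0.01, of 1 read, which was worth 0.0425 CPM in hypoxia with T3, 0.0552 in hypoxia and 0.0463 in control, so that 22533574, 17118865 and 18081904 reads were recovered. A count test on these reads was not run because no group has a second library. The authors also deposited 2 comparison tables that hold, per the file headers, a signed fold score, with its p-value and its false discovery rate, from a test not given in the sources used here. Their 4 value columns were not used.

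Log2 ratios had 1 CPM added to both values and covered the genes whose mean reached 1 CPM. Folds are ratios of CPM, with exact Clopper-Pearson 95% intervals on a gene's reads in 2 libraries, and levels have exact Poisson intervals. A count of 0 allows up to 3 reads. No molecular identifiers were used, so reads may be copies of 1 molecule and these limits cover counting error only. Named genes were all members, their neighbours within 1 kb, at most the 2 highest and 2 lowest of each list with a mean of at least 5 CPM, and the 5 genes most like the hosts, with predicted models left out of the last. Slightly more were named where a count or an example called for it (such as Snhg7 and Upf1), chosen after their values were seen. The members and lists were chosen with earlier results of these data known. Alternatives were other pseudocounts, filters and scalings. The procedure was tested on simulated reads with counting error alone, which cannot show how it behaves with spread between replicates. Calculations used scipy 1.17.1, numpy 2.4.6, matplotlib 3.10.9 and pandas 2.3.3 under Python 3.11.15. The result of 1 marker list is not reported here.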

Additional observations from a re-analysis of the deposited data

How the results depend on the processing

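The alternatives were 0.5 or 5 CPM added, no filter or a mean of at least 5 CPM, and libraries scaled to equal sums, by the median of ratios or by the upper quartile. Recomputed log2 ratios of the host genes, 126 in number, were judged by their shift from the main setting. For 116 the shift was smaller than the log2 distance from the fold to its counting bound, 10 moved further and 0 reversed. The filters only choose which genes are compared, and every host passed the stricter filter, so filtering could not change a host's ratio. The results under the filters are counted among the 116 and say nothing of stability. The same holds for the filter results among the 105 counts and medians given below. Because the ratios have CPM added and the bounds do not, a ratio among the 116 can still lie outside the printed bounds. Of 105 recomputed counts and medians over the hosts, 3 moved: the number at least 2-fold higher in hypoxia with T3 over control was 3 with 5 CPM added and 3 with equal sums, against 5, and the median log2 ratio of hypoxia over control was 1.10 with 5 CPM added, against 1.43. Of 210 recomputed medians of the other gene lists, 2 moved, both of the other noncoding hosts, to 0.55 with 5 CPM added, against 0.93 with T3 and 1.01 without. Adding 5 CPM compresses the ratios of genes with low CPM, and equal sums shift all genes alike. Every host remained at least 1.5-fold higher than control in each hypoxic library under all these settings.

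Counts over all genes changed more. With 5 CPM added, hypoxia over control had 155 genes higher by 2-fold or more and 286 lower, against 252 and 624, and hypoxia with T3 over control had 167 and 269, against 262 and 582. At 1.5-fold these counts were 681 and 1109 in hypoxia, against 1074 and 1754, and 686 and 1024 with T3, against 1108 and 1663. With equal sums, 508 genes reached 1.5-fold higher with T3 and 519 without, and 2414 and 2455 reached 1.5-fold lower. With the median of ratios, 756 were higher and 1918 lower with T3. In hypoxia with T3 over hypoxia, 91 genes higher and 35 lower at 1.5-fold became 142 and 77 with 0.5 CPM added, 24 and 10 with 5 CPM added, and 39 and 14 with the stricter filter. No paired analysis was possible because each group has 1 library. Depth limits Snhg3 most, with 59 reads in control.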
